A study of Mus musculus with 6 samples.

Results

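Solute carriers and ATP-binding cassette (ABC) transporters were compared between mouse embryoid bodies kept with and without a static magnetic field. The members were the protein-coding genes whose symbol begins with Slc or Slco and a number, or with Abca to Abcg and a number, leaving out the sodium-calcium exchangers named Slc8a. There were 37 such genes among the 2031 genes (1811 protein-coding) of the analysed table: 35 solute carriers, 2 of them of the organic anion (Slco) branch, and 2 ABC transporters. J1 is a mouse embryonic stem cell line of strain 129S4/SvJae, and all libraries came from this single line. Its cells were differentiated towards heart muscle as embryoid bodies, cell aggregates formed in hanging drops over 3 days. The NC group (n = 3) stayed in a conventional incubator, and the MF group (n = 3) in one that applied a static magnetic field; poly-A RNA was sequenced from each. The sources used here do not give the field strength, the exposure or the collection day. The series calls the libraries biological triplicates, and p-values measure the spread between these 3 libraries a group.

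Solute carriers move ions, nutrients and metabolites across membranes, either down a gradient or coupled to sodium, protons or a counter-ion. ABC transporters use ATP to pump their cargo. Early embryonic cells draw on amino acid, nucleoside and sugar carriers for growth, and cardiac and muscle cells are known for an insulin-regulated glucose carrier. The mitochondrial SLC25 family exchanges nucleotides, carnitine esters and other metabolites with the matrix.

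The table holds only genes that the authors had selected on the same libraries, where the largest adjusted p in the authors' deposited table is 0.0499 and the smallest log2 fold change, without its sign, is 1.001. A member is therefore in the table because it differed, and the tests below describe size and spread without being independent support. Sequencing depth ranged from 14929232 to 19176383 counts a library. Libraries numbered 2 stood apart in both groups, as given below by library. Of the 14 listed cardiomyocyte markers, 12 were in the table, and their summed level was 33.4 to 77.1 FPKM (fragments per kilobase of gene length, scaled to the library total) in NC and 141 to 709 FPKM in MF. In such bulk RNA, fewer cells of a type and less RNA per cell cannot be told apart. Other listed marker groups also differed: naive pluripotent markers (4 of 14 in the table) summed to 274 to 750 FPKM in NC and 65.5 to 185 FPKM in MF, and germ cell markers (7 of 10) to 42.6 to 183 and 4.20 to 17.6 FPKM. Trophoblast markers (4 of 10) summed to 162 to 249 FPKM in NC and 314 to 741 FPKM in MF. Mesenchyme markers (12 of 14) summed to 103 to 259 FPKM in NC and 239 to 1206 FPKM in MF. These sums overlapped, with MF replicate 2 (239 FPKM) below NC replicate 1 (259 FPKM). Endothelial markers (6 of 10) also overlapped, at 15.2 to 44.7 FPKM in NC and 25.9 to 64.3 FPKM in MF. Of these, 5 rose, while Pecam1 was 2.75-fold lower (edgeR adjusted p = 0.0390). No listed marker in the table was at 0 in all 3 NC libraries, and 0 of the 16, 12, 10 and 6 listed markers of visceral endoderm, neural, blood and smooth muscle cells were among the genes analysed. The part of these cell-type markers in the transporter results was not tested.

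The transporters were in the table about as often as other genes, but more of them were lower in MF. The mouse annotation (GENCODE M21) lists 432 protein-coding genes with such names, so the 37 members are 8.56% of them, beside 8.26% of all protein-coding genes (1811 of 21924). In the authors' deposited table, 16 members were higher and 21 lower in MF. The higher share was thus 43.2% of members, beside 67.2% of protein-coding genes and 63.2% of all genes of the table. Sugar, polyol and monocarboxylate carriers had the largest share of annotated genes in the table, 15.9% (7 of 44), and neurotransmitter carriers the smallest, 2.86% (1 of 35). All 3 nucleoside and lipid carriers were lower and both metal carriers were higher. These shares are descriptions of the selected table.

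**Figure D1:**
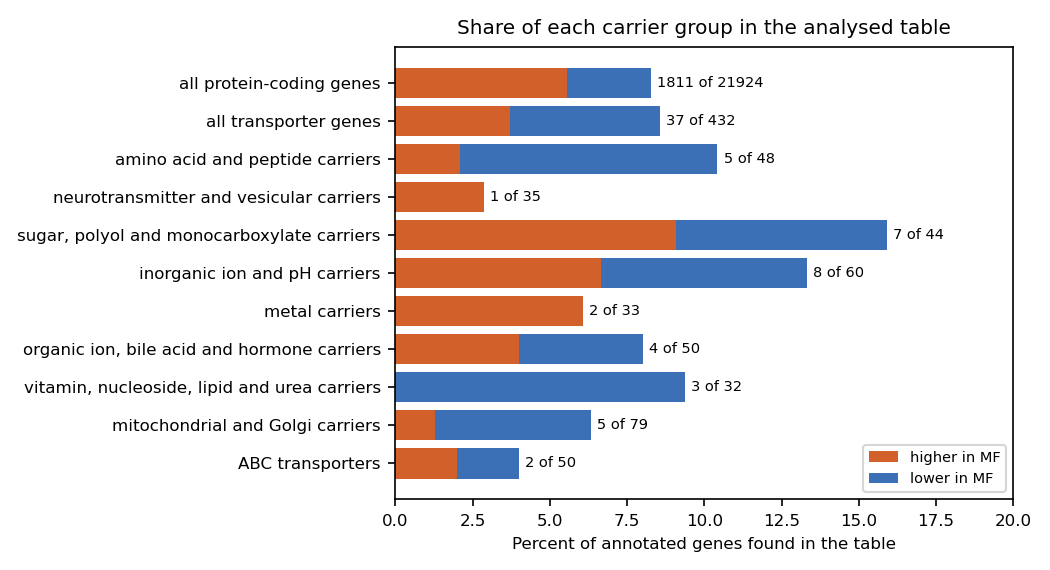
Percent of the annotated genes of each carrier group that are in the analysed table, with bars split into genes higher and lower in MF by the authors' deposited fold change; labels give the number in the table and annotated. The bar of all transporter genes (37 of 432) ends near that of all protein-coding genes (1811 of 21924), with a larger part lower in MF.

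In MF, 11 members rose and 18 fell (edgeR quasi-likelihood, Benjamini-Hochberg adjusted over 1651 tested genes). The test covered the 31 members that averaged 0.5 FPKM or more across the 6 libraries. Of all tested genes of this selected table, 97.5% were called, 62.1% higher and 35.4% lower. Slc41a3 and Slc16a9 had log2 fold changes of 1.06 and 1.07 and missed the threshold (adjusted p = 0.0629 and 0.0640); with replicate number as a block, Slc41a3 passed (adjusted p = 0.0460), giving 12 higher and 18 lower members (62.4% and 35.7% of all tested genes). The NC and MF libraries did not overlap in 35 of the 37 members, beside 93% of all named genes; Abcc4 and Slco4c1 were the exceptions. The 13 tested members above 0 had a median log2 fold change of 1.20 (range 1.06 to 1.99), beside 1.62 over all 1052 such genes. The 18 below 0 had a median of -1.61 (range -2.92 to -1.06), beside -1.75 over 599 genes.

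The calls of rises depended on scaling more than those of falls. With TMM factors 0 members were higher and 18 lower (17.6% and 35.7% of all tested genes), and with median-of-ratios factors 0 and 14 (9.57% and 30.7%). Those scalings moved the median log2 fold change of all tested genes, 1.22, by -0.70 and -1.05. Under TMM factors all 13 tested higher members stayed above 0 (0.30 to 1.40), while median-of-ratios factors put Slc16a9 at -0.09 and most other rises near 0. Under these factors the log2 fold change was 0.0022 for Slco2a1, 0.02 for Slc4a4, 0.07 for Slc40a1, 0.13 for Slc22a18 and 0.19 for Slc25a24. It was 0.23 for Slc36a4, 0.30 for Slc2a4, 0.32 for Slc2a12 and 1.14 for Abcd2, and the 18 lower members ran from -3.89 to -2.15. Both sets of factors were computed from the tested genes of this selected table, most of them higher in MF. Such scalings take most genes as unchanged, so here they lower rises and deepen falls by construction. They cannot decide which scaling is right, and the rises given below rest on the library totals. Single libraries also decided calls: 0 members were called higher and 0 lower without MF replicate 3 (0.727% and 0% of all tested genes). Without MF replicate 1 there were 0 higher and 1 lower, Slc5a11 (21.6% and 5.45%), and without NC replicate 1 there were 0 and 6 (25.6% and 13.3%). Without NC replicate 2 there were 2 and 6 (35.7% and 8.84%), and without NC replicate 3 there were 5 and 13 (38.1% and 23.2%). Calls were thus lost across the whole table, and every call named below is subject to these limits. Without MF replicate 2, 12 members were higher and 18 lower (60.3% and 35.3%), and the call of Abcd2 was lost. Without both libraries numbered 2 there were 13 and 18 (62.2% and 35.3%). Other single calls were lost for Slc12a8, Slc27a2, Slc28a1 and Slco4c1 under median-of-ratios factors, for Slc4a4 and Slc25a20 in limma, and for Slc22a18 under a filter at 2 FPKM, which left 3 higher and 10 lower (59.1% and 35.7% of 1034 genes). When the adjustment covered the authors' 19071 tests (a number worked out from their deposited p-values), 0 members passed in edgeR (0% of all tested genes), although 29 of 31 had an unadjusted p under 0.05 (97.7% of all tested genes). At that number of tests 1 higher and 5 lower passed with the replicate block (22.8% and 7.75% of all tested genes), and likewise 1 and 5 with DESeq2 (29% and 7.21%). Slc29a1, Slc35g1 and Slc5a11, all lower in MF, passed in both of these. The block pairs libraries by number, which the labels do not explain, so its p-values are no firm support.

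**Figure D2:**
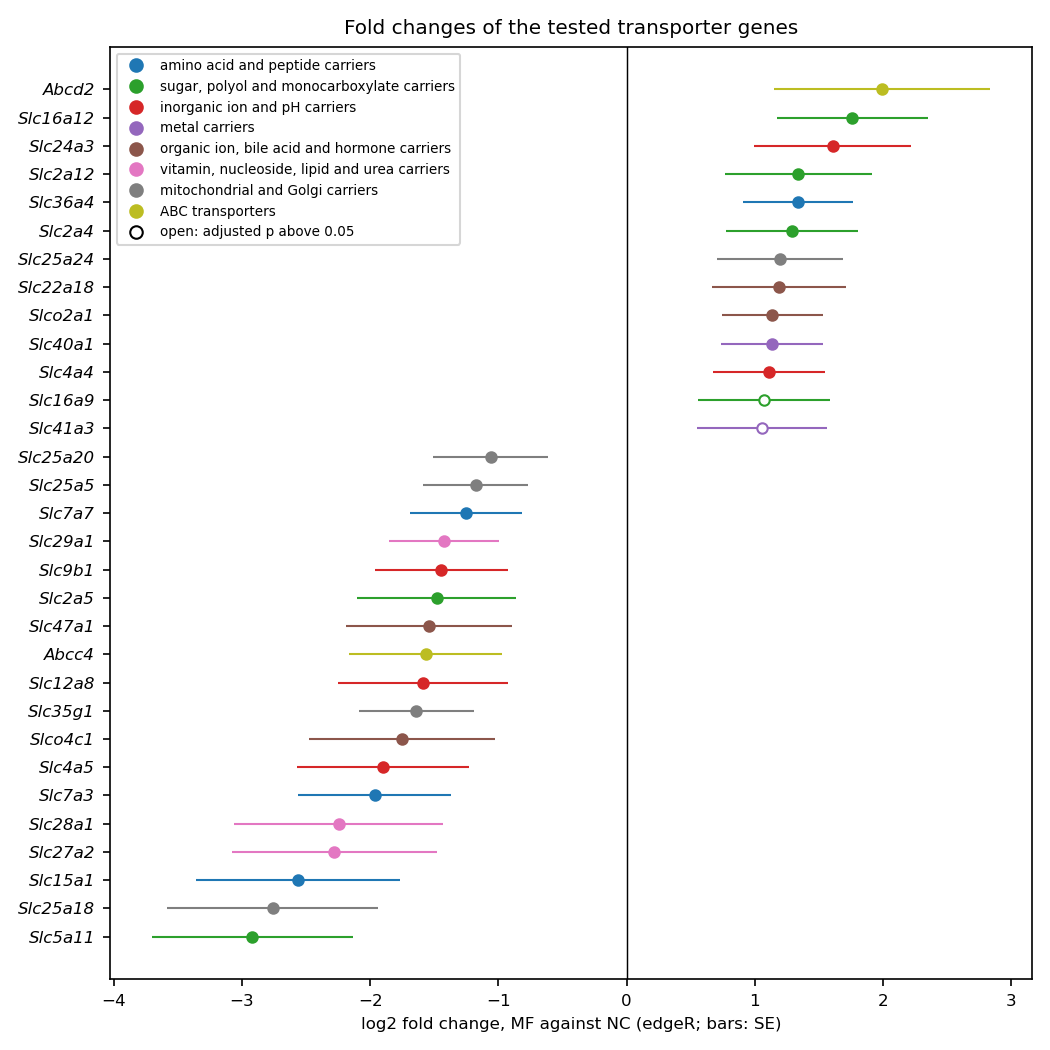
Log2 fold change of MF against NC for the 31 tested transporter genes (edgeR; bars: SE), coloured by carrier group, with open symbols for an adjusted p above 0.05. Estimates run from -2.92 for Slc5a11 to 1.99 for Abcd2, and the 2 open symbols are Slc16a9 and Slc41a3.

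Levels of the members spanned a wide range on the FPKM scale, which corrects for gene length. The mean over the 6 libraries was under 1 FPKM in 14 members, 1 to 10 FPKM in 19, and at least 10 FPKM in 4: Slc25a5, Slc25a24, Slc29a1 and Slc7a3. The members lie on 17 chromosomes, with Slc7a3 and Slc25a5 on the X chromosome. Genes on the opposite strand overlap Slc1a1, Slc16a9, Slc27a2 and Slco2a1 as well as members named below, so their counts are less certain.

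**Figure D3:**
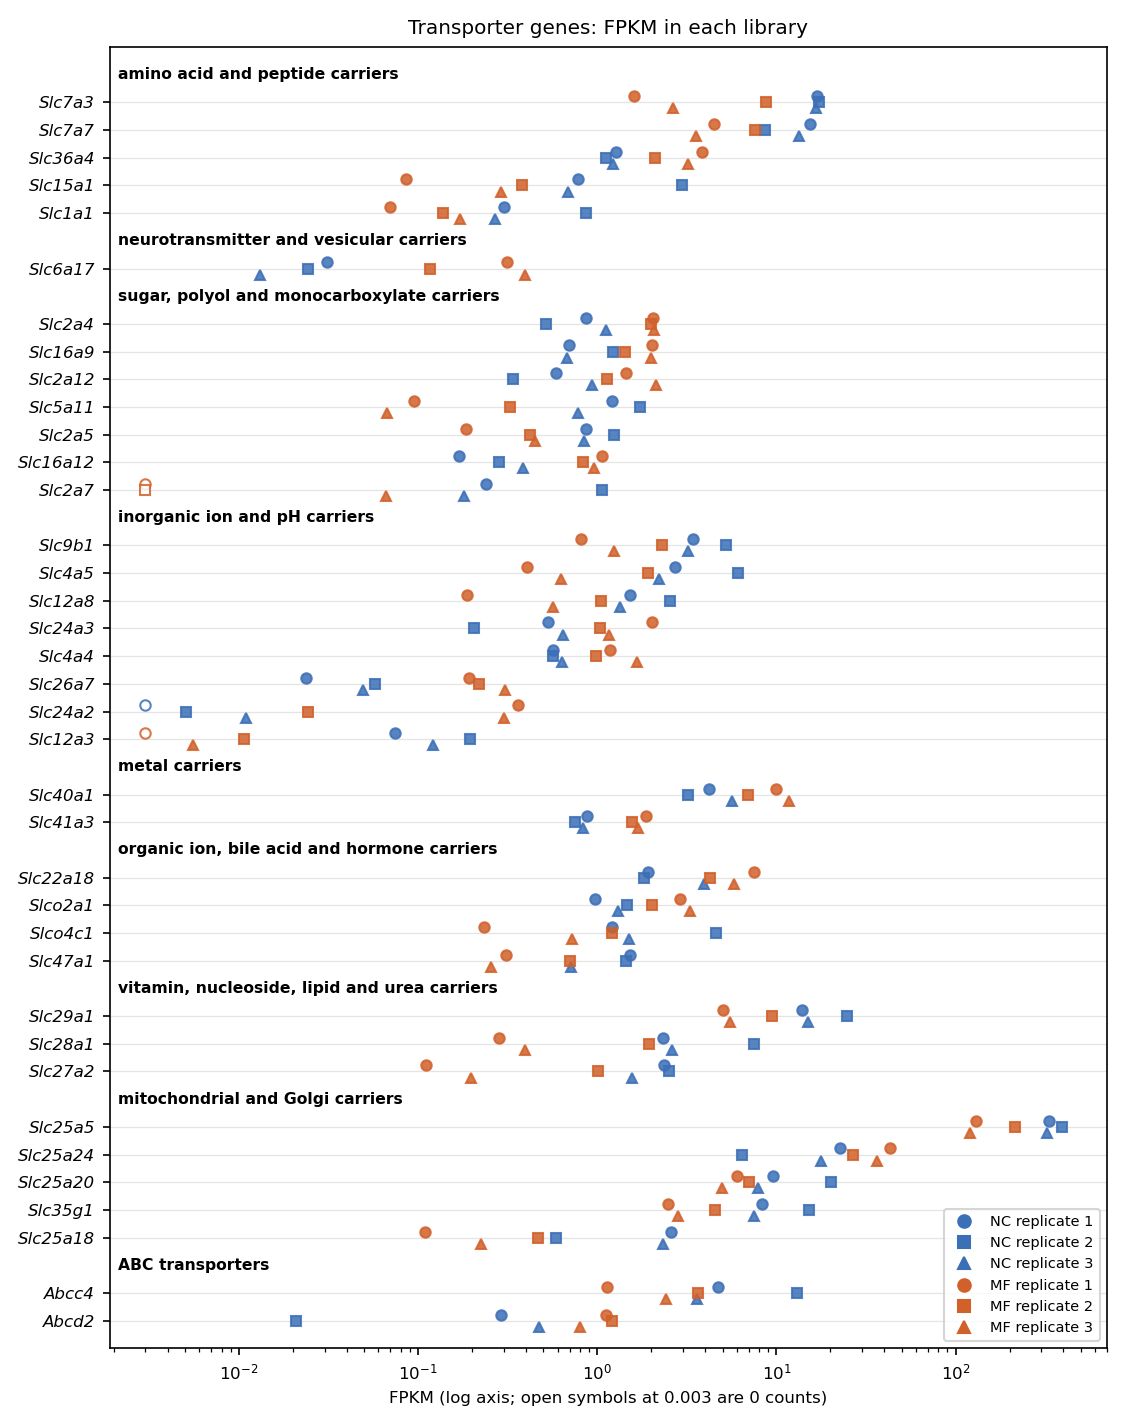
FPKM of each of the 37 transporter genes in each library (log axis; NC blue, MF orange; circle, square and triangle are replicates 1, 2 and 3), grouped by cargo; open symbols at the left edge are 0 counts. Slc25a5 is the highest, at 120.0 to 394 FPKM, and 6 members have means under 0.5 FPKM.

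Of the 5 amino acid and peptide carriers, 3 fell and 1 rose. Slc7a3, a carrier of cationic amino acids such as arginine and lysine (ENSMUSG00000031297; mm10 chrX:101079210-101086020, minus strand), measured 16.9, 17.3 and 16.7 FPKM in NC replicates 1 to 3 and 1.60, 8.78 and 2.65 FPKM in MF replicates 1 to 3. The NC libraries were nearly level, at 17.0 ± 0.272 FPKM (SD, n = 3), and the MF libraries, at 4.34 ± 3.88 FPKM, were spread out and all below them. Slc7a3 was 3.91-fold lower in MF (log2 fold change -1.97, SE 0.60; edgeR adjusted p = 0.0242), and 7.99-fold lower without MF replicate 2.

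Slc7a7, the light chain of an exchanger that exports cationic for neutral amino acids, measured 15.4, 8.61 and 13.3 FPKM in NC and 4.50, 7.61 and 3.56 FPKM in MF. It was 2.38-fold lower (log2 fold change -1.25, SE 0.44; edgeR adjusted p = 0.0295). The gap was narrow between the libraries numbered 2, where NC was at its lowest and MF at its highest. Slc7a7 overlaps Oxa1l on the opposite strand, and the sources do not say whether counting used strand. Slc36a4, a carrier of neutral amino acids such as proline, went against the list: it measured 1.28, 1.12 and 1.23 FPKM in NC and 3.84, 2.09 and 3.22 FPKM in MF. All MF libraries were above the level NC libraries, a 2.52-fold rise (log2 fold change 1.34, SE 0.43; edgeR adjusted p = 0.0258). The proton-coupled peptide carrier Slc15a1 was 5.90-fold lower (edgeR adjusted p = 0.0247) at a mean of 0.866 FPKM, and 2.93-fold without NC replicate 2 (adjusted p = 0.0760). The glutamate carrier Slc1a1 was below the filter, at 0.268 to 0.865 FPKM in NC and 0.0695 to 0.171 FPKM in MF.

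The neurotransmitter and vesicular group had 1 member in the table, Slc6a17, which loads neutral amino acids into synaptic vesicles. It was not tested, at 0.0311, 0.0241 and 0.0130 FPKM in NC and 0.314, 0.116 and 0.394 FPKM in MF. These levels rest on 2 to 5 counts a library in NC and 20 to 66 in MF, and the groups did not overlap.

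Among 7 sugar, polyol and monocarboxylate carriers, 3 rose and 2 fell. Slc2a4 (GLUT4), the insulin-regulated glucose carrier of muscle and fat (ENSMUSG00000018566; mm10 chr11:69942539-69948188, minus strand), measured 0.863, 0.518 and 1.12 FPKM in NC and 2.04, 2.00 and 2.07 FPKM in MF. The MF libraries were almost equal, MF replicate 2 included, and all were above NC (2.44-fold; log2 fold change 1.29, SE 0.52; edgeR adjusted p = 0.0370). Slc2a12, another glucose carrier of insulin-sensitive tissues, measured 0.588, 0.337 and 0.933 FPKM in NC and 1.44, 1.14 and 2.13 FPKM in MF. It was 2.53-fold higher (log2 fold change 1.34, SE 0.58; edgeR adjusted p = 0.0446), and the lowest MF library was only a little above the highest NC library. Slc2a12 overlaps Tbpl1 on the opposite strand. Slc16a12, a creatine carrier, was 3.39-fold higher (edgeR adjusted p = 0.0274), from 0.279 ± 0.109 FPKM in NC to 0.950 ± 0.118 FPKM in MF (SD, n = 3 each).

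The members of this group that fell were a polyol and a fructose carrier. Slc5a11, a sodium-coupled carrier of myo-inositol (ENSMUSG00000030769; mm10 chr7:123214780-123273253, plus strand), measured 1.20, 1.73 and 0.777 FPKM in NC and 0.0945, 0.324 and 0.0668 FPKM in MF. Every MF library was well below every NC library, and its 7.57-fold fall was the largest of the tested members (log2 fold change -2.92, SE 0.78; edgeR adjusted p = 0.0201). The counts of Slc5a11 were 52, 77 and 32 in NC and 5, 15 and 3 in MF, so the size of its fall is limited by depth. Without MF replicate 2 the fall was 14.8-fold, resting on the 5 and 3 counts of MF replicates 1 and 3. Slc2a5 (GLUT5), the fructose carrier, measured 0.864, 1.24 and 0.847 FPKM in NC and 0.184, 0.420 and 0.451 FPKM in MF. It was 2.79-fold lower (log2 fold change -1.48, SE 0.62; edgeR adjusted p = 0.0413), with no overlap between groups. The related Slc2a7 was not tested and had 44 counts over the NC libraries and 2 over MF, a depth-corrected ratio of 24.6 (95% interval 6.42 to 209.6, counting error only). Its NC counts were uneven, with 32 in replicate 2 beside 7 and 5 in replicates 1 and 3. In MF replicates 1 to 3 it had 0, 0 and 2 counts.

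**Figure D4:**
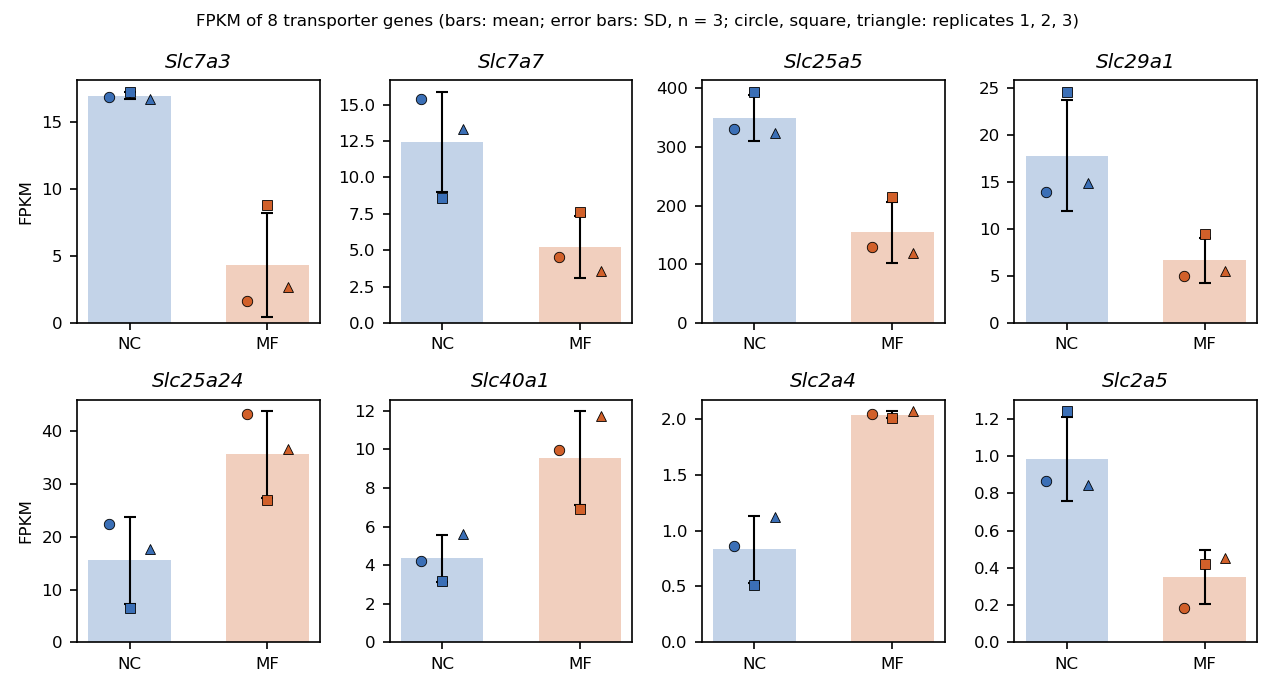
FPKM of 8 transporter genes, picked for plotting after their values were seen, in NC and MF (bars: mean; error bars: SD, n = 3; circle, square and triangle: replicates 1, 2 and 3; linear axes from 0). The groups do not overlap in any of the 8; Slc7a3 is level in NC and spread in MF, and Slc2a4 is level in MF.

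Slc2a5 and Slc2a7 are neighbours on chromosome 4, both on the plus strand, 4802 bases apart with 0 coding genes between them; no other members were adjacent. Their promoter windows are printed because this adjacent pair was lower in MF together, and those of Slc25a5 and Slc25a24 because these are the highest-level members and go in opposite directions. Each window runs from 250 bases before to 50 after a RefSeq transcript start on build GRCm38.p6, 5′ to 3′ on the plus strand. Capitals mark matches on either strand to the motifs searched. These were the GC box bound by Sp-family factors, spelled GGGCGG, and the promoter element known as the CCAAT box. The core promoter element that positions transcription starts, the TATA box, was spelled TATANAA. The element of the AP-1 factors Fos and Jun was spelled TGANTCA, and the core shared by hypoxia response elements and some E-boxes was ACGTG. The ATF4 composite element was spelled TGATGNAA, the antioxidant element of the Nrf2 factor was TGACNNNGC, and the MEF2 motif was searched as well. The windows are chr4:150119094-150119393 for Slc2a5, chr4:150148637-150148936 for Slc2a7, chrX:36795347-36795646 for Slc25a5 and chr3:109122899-109123198 for Slc25a24.
Slc2a5: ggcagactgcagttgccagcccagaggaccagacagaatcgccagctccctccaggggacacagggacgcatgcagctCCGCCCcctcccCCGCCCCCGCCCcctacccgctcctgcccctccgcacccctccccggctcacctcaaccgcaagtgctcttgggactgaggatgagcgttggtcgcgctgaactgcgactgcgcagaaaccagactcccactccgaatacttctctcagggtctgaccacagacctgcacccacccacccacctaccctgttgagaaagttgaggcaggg
Slc2a7: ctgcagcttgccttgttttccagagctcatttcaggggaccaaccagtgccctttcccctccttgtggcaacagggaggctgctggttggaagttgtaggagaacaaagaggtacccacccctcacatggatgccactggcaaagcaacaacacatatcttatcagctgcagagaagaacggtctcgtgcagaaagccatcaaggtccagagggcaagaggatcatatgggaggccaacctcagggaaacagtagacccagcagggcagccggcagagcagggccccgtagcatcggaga
Slc25a5: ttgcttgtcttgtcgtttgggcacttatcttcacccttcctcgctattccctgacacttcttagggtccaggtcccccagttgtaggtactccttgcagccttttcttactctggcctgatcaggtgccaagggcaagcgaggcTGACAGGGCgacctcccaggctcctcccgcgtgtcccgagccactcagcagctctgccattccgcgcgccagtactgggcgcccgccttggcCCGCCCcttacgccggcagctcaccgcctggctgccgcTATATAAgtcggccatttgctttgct
Slc25a24: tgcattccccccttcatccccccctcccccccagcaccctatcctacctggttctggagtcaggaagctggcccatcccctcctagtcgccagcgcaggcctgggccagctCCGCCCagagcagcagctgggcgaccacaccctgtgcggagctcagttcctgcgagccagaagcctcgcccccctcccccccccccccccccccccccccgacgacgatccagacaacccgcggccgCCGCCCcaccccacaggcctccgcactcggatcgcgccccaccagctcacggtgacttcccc
The Slc2a5 window holds 3 GC boxes in close order and 15 CpG dinucleotides, while the Slc2a7 window holds 5 CpG and none of the searched motifs. The Slc25a5 window holds TGACNNNGC, a GC box and TATANAA, and that of Slc25a24 holds 2 GC boxes. The TATANAA match of Slc25a5 lies after the RefSeq start used, with its first base at position 25. That window ends before the gene start given below, and the Slc2a7 window likewise ends before the gene start of Slc2a7 (chr4:150148972). No marked matches overlap in these windows, and RefSeq starts can differ from the gene starts in the files. RefSeq windows were matched for 31 of the 37 members. GGGCGG was in 7 of 12 windows of higher members and 15 of 19 of lower members, beside 55.2% of 1402 windows of genes of the table and 35.9% of all 27025 windows. CCAAT was in 1 of 12 and 3 of 19, beside 38.7% and 38.0%, and TATANAA in 1 of 12 and 1 of 19, beside 6.42% and 11.9%. These are matches of letters in a window, with no measure of binding.

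Of the 8 inorganic ion and pH carriers, 3 fell and 2 rose. Slc4a5, an electrogenic sodium bicarbonate cotransporter, measured 2.73, 6.09 and 2.22 FPKM in NC and 0.404, 1.93 and 0.625 FPKM in MF. NC replicate 2 and MF replicate 2 were the high library of each group, and MF replicate 2 came close to the lowest NC library. The fall was 3.73-fold (log2 fold change -1.90, SE 0.67; edgeR adjusted p = 0.0297), and 7.14-fold without MF replicate 2. Without NC replicate 2 it was 2.51-fold and no longer called (adjusted p = 0.0871).

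Slc9b1, a sodium-proton exchanger known from sperm, was the highest of these genes, at 3.41, 5.20 and 3.21 FPKM in NC and 0.806, 2.31 and 1.23 FPKM in MF. It was 2.72-fold lower (log2 fold change -1.44, SE 0.52; edgeR adjusted p = 0.0309), again with both libraries numbered 2 at the top of their group. Germ cell markers were lower in MF in the same libraries, and their part in the Slc9b1 result was not tested. Slc12a8, of the cation-chloride cotransporter family, measured 1.52, 2.54 and 1.34 FPKM in NC and 0.188, 1.04 and 0.567 FPKM in MF, 3.01-fold lower (log2 fold change -1.59, SE 0.67; edgeR adjusted p = 0.0419). Its groups did not overlap, and the fall was 4.79-fold without MF replicate 2. It was 2.39-fold without NC replicate 2 and no longer called (edgeR adjusted p = 0.111).

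The bicarbonate cotransporter Slc4a4 and the potassium-dependent sodium-calcium exchanger Slc24a3 rose 2.16-fold and 3.04-fold (edgeR adjusted p = 0.0348 and 0.0331). Slc4a4, unlike its relative Slc4a5, was thus higher in MF, from 0.589 ± 0.0380 to 1.27 ± 0.350 FPKM (SD, n = 3 each). The other members of this group were below the filter. Slc24a2, a second exchanger of the Slc24a3 type, had 149 counts over the MF libraries and 3 over NC, a ratio of 44.4 (95% interval 14.9 to 217.7). Its MF counts were uneven: 84 and 60 in replicates 1 and 3, and 5 in replicate 2. Slc12a3, the thiazide-sensitive sodium chloride cotransporter of the kidney, had 68 counts in NC and 3 in MF, a ratio of 25.4 (95% interval 8.32 to 126.0). The anion exchanger Slc26a7 had 2 to 5 counts a library in NC and 20 to 27 in MF.

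Both metal carriers had higher levels in MF, and 1 passed. Slc40a1 (ferroportin), the cellular iron exporter, measured 4.22, 3.20 and 5.64 FPKM in NC and 9.98, 6.91 and 11.7 FPKM in MF. All MF libraries were above all NC libraries, a 2.19-fold rise (log2 fold change 1.13, SE 0.40; edgeR adjusted p = 0.0299). Slc41a3, of a magnesium carrier family, was at 0.817 ± 0.0664 FPKM in NC and 1.70 ± 0.155 FPKM in MF (SD, n = 3 each).

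The organic ion carriers split evenly, with 2 higher and 2 lower. Slc22a18, an imprinted member of the organic cation family, measured 1.92, 1.83 and 3.94 FPKM in NC and 7.49, 4.24 and 5.82 FPKM in MF. The highest NC library was close to the lowest MF library, and the rise was 2.28-fold (log2 fold change 1.19, SE 0.52; edgeR adjusted p = 0.0469). Slco2a1, the prostaglandin carrier, measured 0.971, 1.47 and 1.30 FPKM in NC and 2.91, 2.01 and 3.31 FPKM in MF, 2.20-fold higher (log2 fold change 1.14, SE 0.39; edgeR adjusted p = 0.0286). Its groups did not overlap.

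Slco4c1, an organic anion carrier, measured 1.21, 4.59 and 1.50 FPKM in NC and 0.234, 1.21 and 0.726 FPKM in MF. MF replicate 2 reached the level of NC replicate 1, so the groups overlapped. The fall was 3.36-fold (log2 fold change -1.75, SE 0.73; edgeR adjusted p = 0.0406). It was 1.87-fold without NC replicate 2, and no longer called (adjusted p = 0.214), and 5.09-fold without MF replicate 2. Slc47a1, a proton-coupled exporter of organic cations, was 2.91-fold lower (edgeR adjusted p = 0.0419). Its NC replicate 3 (0.713 FPKM, 36 counts) was only just above MF replicate 2 (0.704 FPKM, 40 counts), so that non-overlap is within counting error.

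All 3 nucleoside and lipid carriers fell. Slc29a1 (ENT1), the equilibrative nucleoside carrier (ENSMUSG00000023942; mm10 chr17:45585200-45599606, minus strand), measured 13.9, 24.7 and 14.9 FPKM in NC and 5.04, 9.43 and 5.52 FPKM in MF. Both groups had replicate 2 at the top and every MF library stayed below every NC library. The fall was 2.68-fold (log2 fold change -1.42, SE 0.43; edgeR adjusted p = 0.0240), and a noncoding antisense gene, Gm17080, overlaps Slc29a1.

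Slc28a1 (CNT1), a sodium-coupled carrier of pyrimidine nucleosides, measured 2.32, 7.49 and 2.61 FPKM in NC and 0.283, 1.94 and 0.396 FPKM in MF. It was 4.75-fold lower (log2 fold change -2.25, SE 0.81; edgeR adjusted p = 0.0309), and MF replicate 2 stood far above the other MF libraries. The fall was 12.2-fold without MF replicate 2, and 2.83-fold without NC replicate 2, where it was no longer called (adjusted p = 0.103). Slc27a2, a fatty acid carrier and very-long-chain acyl-CoA synthetase, measured 2.35, 2.51 and 1.57 FPKM in NC and 0.111, 1.01 and 0.196 FPKM in MF. The groups did not overlap and the fall was 4.86-fold (log2 fold change -2.28, SE 0.80; edgeR adjusted p = 0.0296). Without MF replicate 2 it was 13.9-fold.

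Of the 5 mitochondrial and Golgi-type carriers, 4 fell and 1 rose. Slc25a5 (ANT2), an ADP/ATP exchanger of the inner mitochondrial membrane (ENSMUSG00000016319; mm10 chrX:36795651-36798807, plus strand), had the highest level of all members, at 330.0, 394 and 323 FPKM in NC and 129, 214 and 120.0 FPKM in MF. NC averaged 349 ± 39.3 FPKM and MF 154 ± 51.8 FPKM (SD, n = 3 each), with all MF libraries below all NC libraries. The fall was 2.26-fold (log2 fold change -1.18, SE 0.41; edgeR adjusted p = 0.0288). The annotation holds 1 pseudogene named after Slc25a5, and copies under other names were not searched for. The sources do not say how shared reads were counted.

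Slc25a24, the calcium-dependent ATP-magnesium/phosphate carrier (ENSMUSG00000040322; mm10 chr3:109123149-109168457, plus strand), went the other way, at 22.5, 6.46 and 17.6 FPKM in NC and 43.2, 26.9 and 36.6 FPKM in MF. NC replicate 2 was far below the other NC libraries, and the lowest MF library was still above the highest NC library. The rise was 2.29-fold (log2 fold change 1.20, SE 0.49; edgeR adjusted p = 0.0392). Slc35g1, a member of the SLC35 family (ENSMUSG00000044026; mm10 chr19:38395980-38405610, plus strand), measured 8.27, 15.1 and 7.45 FPKM in NC and 2.49, 4.56 and 2.83 FPKM in MF. It was 3.12-fold lower with no overlap (log2 fold change -1.64, SE 0.45; edgeR adjusted p = 0.0211).

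Slc25a18, a mitochondrial glutamate carrier, measured 2.57, 0.585 and 2.31 FPKM in NC and 0.109, 0.467 and 0.225 FPKM in MF. NC replicate 2, at 18 counts, was only just above MF replicate 2, at 15 counts, so that non-overlap is within counting error. The fall was 6.78-fold (log2 fold change -2.76, SE 0.82; edgeR adjusted p = 0.0237), and 10.8-fold without MF replicate 2. Slc25a18 overlaps the coding gene Atp6v1e1 on the opposite strand. Slc25a20, the carnitine-acylcarnitine carrier, was 2.09-fold lower (edgeR adjusted p = 0.0428), from 12.6 ± 6.71 to 6.01 ± 1.04 FPKM (SD, n = 3 each). Its NC replicate 2 stood at 20.2 FPKM, beside 9.53 and 7.88 FPKM in NC replicates 1 and 3. Without NC replicate 2 the fall was 1.45-fold and no longer called (edgeR adjusted p = 0.171).

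The ABC transporters went in opposite directions. Abcc4 (MRP4), an exporter of cyclic nucleotides and organic anions, measured 4.71, 13.0 and 3.62 FPKM in NC and 1.13, 3.63 and 2.42 FPKM in MF. NC replicate 2 was far above the other NC libraries, and MF replicate 2 slightly exceeded NC replicate 3. The fall was 2.96-fold (log2 fold change -1.57, SE 0.60; edgeR adjusted p = 0.0331), and 1.74-fold without NC replicate 2 (adjusted p = 0.148). Abcd2, a peroxisomal carrier of very-long-chain acyl-CoA, was 3.98-fold higher (edgeR adjusted p = 0.0430); its NC replicate 2 had 2 counts, beside 27 and 42 in the other NC libraries. Without NC replicate 3 Abcd2 was 6.66-fold higher. Without NC replicate 2 it was 2.72-fold higher and no longer called (edgeR adjusted p = 0.0530), and without both libraries numbered 2 it was 2.5-fold higher.

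Most lower members shared a library pattern with the other lower genes of the table. NC replicate 2 was the highest NC library in 18 of the 21 lower members, beside 82.5% of all lower named genes, and MF replicate 2 was the highest MF library in 18 of 21, beside 85.6%. The exceptions were Slc25a18, Slc47a1 and Slc7a7 for NC, and Slc1a1, Slc2a5 and Slc2a7 for MF. Among the 16 higher members, MF replicate 2 was the lowest MF library in 14, all but Abcd2 and Slc26a7, beside 78.8% of all higher named genes. Naive pluripotent markers were also highest in the libraries numbered 2, at 750 FPKM in NC and 185 FPKM in MF, as were germ cell markers, at 183 and 17.6 FPKM; their part was not tested.

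The shift of MF replicate 2 from the NC mean, on log2(FPKM + 0.1), was compared with the mean shift of MF replicates 1 and 3. It had a median of 41.0% in the 18 tested lower members and 60.9% in the 13 higher ones, beside 48.4% and 57.8% over all tested genes. It was under 50% in 11 of 18 lower members (322 of 599 lower genes) and in 0 of 13 higher members (400 of 1052 higher genes). Tested members ran from 27.7% in Slc28a1 to 118% in Abcd2, with Slc2a4 next to the top at 97.3%.

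**Figure D5:**
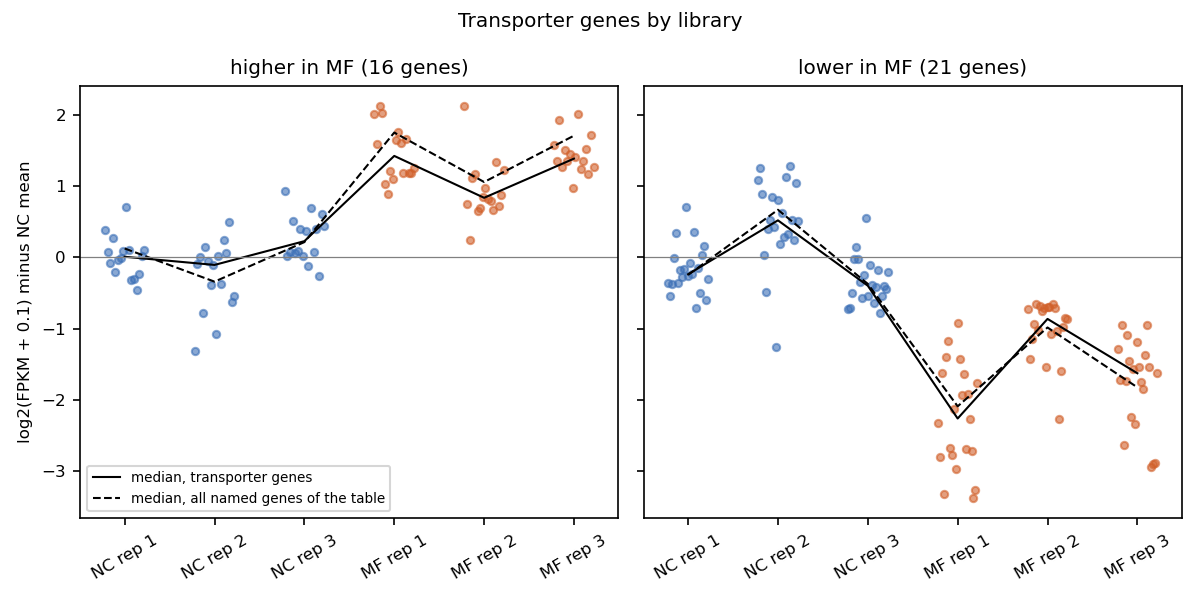
Difference from the NC mean on log2(FPKM + 0.1) in each library, with points for the 16 higher (left) and 21 lower (right) transporter genes; solid lines are their medians and dashed lines the medians of all named genes of the table in the same direction. MF replicate 2 lies nearest to NC in both panels, with medians of 0.83 and -0.86, and NC replicate 2 is raised in the lower genes by a median of 0.52.

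Of 27 listed carrier partners and sodium pump genes, 6 were in the table (22.2%, beside 8.26% of all protein-coding genes), and of 5 tested 2 rose and 3 fell. Fxyd2, a regulatory subunit of the sodium pump, was 11.98-fold lower (edgeR adjusted p = 0.0124), or 6.08-fold without NC replicate 3, while Fxyd1, its relative in heart and muscle, was 8.31-fold higher (adjusted p = 0.0151). The scaffold Pdzk1, which binds carriers at the membrane, was 4.67-fold lower (adjusted p = 0.0265), or 2.67-fold without NC replicate 2 (adjusted p = 0.0826).

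Other lists bear on nutrient supply. Of 17 listed genes of the ATF4 amino acid response, 2 were in the table (11.8%, beside 8.26% of all protein-coding genes): Vldlr was 5.37-fold higher and Nupr1 2.37-fold lower. Of 21 glycolysis and hypoxia genes, 1 was in the table (4.76%), the phosphofructokinase Pfkp, 2.72-fold lower. NC replicate 2 was far above the other NC libraries for Pfkp, and without it the fall was 1.40-fold and not called (adjusted p = 0.217). Of 18 LXR and PPAR targets, 2 were in the table (11.1%) and both rose: the fatty acid receptor Cd36 by 19.4-fold and the lipase Lpl by 2.21-fold. The rise of Cd36 was uneven, at 0.741, 9.10 and 1.42 FPKM in MF, and was 5.58-fold without MF replicate 2. Median-of-ratios factors put the log2 fold change of Lpl at 0.05 (adjusted p = 0.936) and left Vldlr and Cd36 just short of the threshold (adjusted p = 0.0538 and 0.0502). All 5 passed edgeR's test (adjusted p = 0.0123, 0.0359, 0.0348, 0.0148 and 0.0255 in that order).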

How the data were processed

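The members and lists were chosen with earlier results of these data known. Poly-A RNA was sequenced in 6 libraries; the submitters' processing notes name HISAT2 2.0.5, featureCounts and mm10. Strand use in counting: not given in the sources used here. Per the file headers, the authors deposited raw counts, FPKM, a normalized signal, a log2 fold change, a p-value and an adjusted p-value for 2031 genes. Deposited counts and FPKM gave the library totals used as library sizes; the table takes 5.68% to 10.4% of them, and 3 counts correspond to 0.156 to 0.201 FPKM at 1 kb. Intervals cover counting error only.

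The 48 rows with no gene name (at most 0.0390% of a library) were left out and 4 date-like names restored by ID. Named genes averaging 0.5 FPKM or more (1651) were tested with edgeR 4.0.16 (R 4.3.3), quasi-likelihood, two-sided, group as the only term, Benjamini-Hochberg at 0.05. This does not control the error over the genome, since the table was selected; adjustment over the authors' 19071 tests, a number recovered from their p-values, was an alternative with ranks counted among deposited genes. Other alternatives were DESeq2 1.42.0, limma 3.58.1, scalings, filters, a replicate block and libraries left out; DESeq2 over the authors' tests was added after seeing the data. The code was tested on simulated data.

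In each carrier group, every library is given for up to 4 called members with a mean of at least 1 FPKM and the largest changes, for the highest-level member, and for up to 2 called members against the group's direction. Other members are given by counts or range; library values of these, where given, were chosen after they were seen. In the other gene lists up to 3 called members were named; Cd36 library values were added after they were seen. Deviations of same-numbered libraries correlated at 0.386, 0.554 and 0.320 for numbers 1, 2 and 3. NC replicate 3 correlated more with MF replicate 1 (0.545), so the values do not single out this pairing. The replicate block, used only as an alternative, paired libraries by the replicate number in their labels, which do not say what a shared number means. Its p-values are therefore no firm support. Within groups no libraries agreed within sampling noise.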

Additional observations from a re-analysis of the deposited data

How the results depend on the processing

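The 22 tested members described in full kept the sign of their log2 fold change in the alternatives run (387 values, 0 reversed), although rises came near 0 under median-of-ratios factors (0.0022 for Slco2a1). These values include repeats, since alternatives that change only the adjustment share fold changes. A kept sign was also likely for genes selected for a difference on these libraries. Slc16a9, tested but not among the 22, went to -0.09 under median-of-ratios factors. Counts of members called higher and lower, 11 and 18 as reported, moved as follows. TMM factors gave 0 and 18, median-of-ratios factors 0 and 14, and a filter at a mean of 2 FPKM 3 and 10, with fewer genes tested (59.1% and 35.7% of these). Adjusted over the authors' number of tests, the counts were 0 and 0, or 1 and 5 with DESeq2, which was chosen after seeing the data. Leaving out 1 library gave 0 to 12 higher and 0 to 18 lower, with 2 libraries left in 1 group; the lowest came without MF replicate 3 (0.727% and 0% of all tested genes) and the highest without MF replicate 2 (60.3% and 35.3%). Without both libraries numbered 2 the counts were 13 and 18 (62.2% and 35.3%). DESeq2, limma at either pseudocount and no filter kept both counts within 1.5 times of those reported. The TMM and median-of-ratios factors were computed from the selected genes themselves, so they cannot decide which scaling is right. The cause of the moves with single libraries was not tested.

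With the replicate block, 12 members were higher and 18 lower. With the replicate block adjusted over the authors' number of tests, 1 was higher and 5 lower, beside 22.8% and 7.75% of all tested genes; DESeq2 called 29% and 7.21% of them at that number of tests. Members at a few counts, such as Slc2a7, Slc12a3 and Slc24a2, are limited by depth.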
